A study of Mus musculus with 12 samples.

Results

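The genes described here are Cd3d, Cd3e and Cd3g, which encode the delta, epsilon and gamma chains of the CD3 complex, 3 of the 27998 gene columns of the count tables. They were selected on their measured levels, because UMIs of Cd3d lay in cells that had no UMI of Cd3e or Cd3g. Their own levels are therefore given as a description without a test. The levels were read over all cells and over the 32562 of 32701 cells that had no UMI of Cd3e or Cd3g. The third gene named for that gate, Trbc2, was not analysed here, nor were the other T cell receptor constant region genes.

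In a T cell the CD3 chains pair as delta with epsilon and gamma with epsilon, join the CD3 zeta chain encoded by Cd247, and carry the signal of the T cell receptor to the kinases Lck and Zap70 through their cytoplasmic tails. The receptor reaches the surface only when the chains are assembled together, and the genes are textbook markers of the T lineage. The granulocytes that make up a large part of marrow are not known for making this complex. Granulocyte precursors pass from a stage rich in primary granule proteins such as Elane and Prtn3 to one rich in secondary granule proteins such as Ngp, Camp, Ltf and the collagenase Mmp8, and then to one rich in gelatinase granule proteins such as Mmp9.

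The data are 10x Genomics 3′ single-cell RNA-seq of c-Kit+ cells enriched by magnetic separation from mouse bone marrow, with 1 library for each of 4 genotypes at each of 3 time points. All mice, including WT, received pIpC, which induces the recombinase Mx1-Cre, at an age of 8 to 12 weeks by the labels (the study's text gives a younger age), and marrow was taken 2 weeks (T1), 2 months (T2) or 4 months (T3) later. WT mice lacked Mx1-Cre, E2-KO mice were Mx1-Cre+;Ezh2 f/f (loss of the Polycomb methyltransferase Ezh2), G12D mice were Mx1-Cre+;NRas G12D+/- (an activated RAS protein), and G12D/E2-KO mice carried Mx1-Cre with both. The question behind the design is how NRas activation and Ezh2 loss, alone and together, change the marrow while leukemia develops. Mx1-Cre acts in all hematopoietic lineages and in some other tissues, and its presence differs between WT and every mutant.

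Each library is a sample of its own, and mice, time of processing and genotype cannot be told apart within it. The libraries held 2350 to 3767 cells and 12.6 to 23.6 M UMIs (M, 10 to the power of 6). The G12D T1 and G12D/E2-KO T1 tables shared 2896 cells, which were counted only in G12D/E2-KO T1, and the other 65 pairs of tables shared none. Ezh2, the gene deleted in 2 of the genotypes, was 1.92 lower in E2-KO than in WT on the log2 scale with an SE of 0.17 (edgeR quasi-likelihood test, adjusted p = 0.000351), and 2.36 lower in the double mutant with an SE of 0.17 (adjusted p = 0.000112). Kit itself stood at 124 CPM in cells gated as HSC/MPP-like, 70.9 CPM in GMP/early GN-like cells and 14.8 CPM in late GN-like cells. CPM means the UMIs of a gene per M UMIs of the same cells, and late GN-like cells are late granulocyte precursors gated on markers such as Ngp, Camp, Ltf and S100a8, with no CD3 gene among the markers.

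The 3 genes lie side by side on chromosome 9 of mm10. Cd3g runs on the minus strand (chr9:44969572-44980431), Cd3d on the plus strand (chr9:44981786-44987339) and Cd3e on the minus strand (chr9:44998740-45009627). Cd3d and Cd3g point away from each other with start sites 1355 bases apart, and the ends of Cd3d and Cd3e are 11401 bases apart. The windows from 250 bases before to 50 bases after the starts of Cd3d (chr9:44981536-44981835, plus strand) and Cd3g (chr9:44980382-44980681, minus strand) are shown because 1 gene of this divergent pair had nearly all the UMIs in granulocytes. They are RefSeq sequences of GRCm38.p6, written from 5′ to 3′, and capitals mark matches to TTNNGNAA, the core recognised by the C/EBP factors of granulocytes, on either strand.
Cd3d: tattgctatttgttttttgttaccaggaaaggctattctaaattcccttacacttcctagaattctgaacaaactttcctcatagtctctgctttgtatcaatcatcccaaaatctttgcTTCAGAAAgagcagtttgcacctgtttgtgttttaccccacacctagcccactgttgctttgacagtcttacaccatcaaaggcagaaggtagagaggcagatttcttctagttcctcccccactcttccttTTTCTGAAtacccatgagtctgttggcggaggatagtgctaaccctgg
Cd3g: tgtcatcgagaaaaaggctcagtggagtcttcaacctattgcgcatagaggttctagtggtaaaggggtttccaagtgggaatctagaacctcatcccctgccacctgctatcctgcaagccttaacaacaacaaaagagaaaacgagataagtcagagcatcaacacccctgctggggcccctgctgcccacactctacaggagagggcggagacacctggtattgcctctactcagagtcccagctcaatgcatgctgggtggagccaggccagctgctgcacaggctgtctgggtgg

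The Cd3d window held 2 matches to TTNNGNAA, the Cd3g window 0 and that of Cd3e, not printed, 1. At least 1 match was present in 40.7% of 32851 promoter windows of the same length, and at least 2 in 13.6%. The Cd3d window had 6 matches to GGAA, the core of ETS sites, against 2 in the Cd3g and 5 in the Cd3e window, and 96.0% of all windows held this short motif. The E-box CANNTG matched once in the Cd3d window, 4 times in the Cd3g and 2 times in the Cd3e window, with a match in 72.3% of windows. The RUNX core TGTGGT matched in none of them, and 16.8% of windows held it. All motifs were searched on both strands, and no capitalised match overlaps one to the other motifs. These are matches of letters and not sites of binding.

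Over all cells, Cd3d had 3267 UMIs, Cd3g 212 and Cd3e 13. In WT, Cd3d stood at 1.43 CPM at T1, 0.592 at T2 and 1.64 at T3. In E2-KO it was 0.526, 5.28 and 1.82 CPM. In G12D it was 48.1, 36.9 and 42.3 CPM. All 3 G12D libraries were far above all WT and E2-KO libraries. In G12D/E2-KO, Cd3d was 31.3 CPM at T1, near the G12D libraries, and 1.67 and 0.842 CPM at T2 and T3, within or near the range of WT. The mean over the libraries of a genotype (± SD, n = 3) was 42.4 ± 5.59 CPM for G12D and 11.3 ± 17.4 for G12D/E2-KO, against 1.22 ± 0.553 for WT and 2.54 ± 2.46 for E2-KO.

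Of the 3267 Cd3d UMIs, 3201 (98.0%) lay in cells with no UMI of Cd3e or Cd3g. In those cells the WT libraries had 23, 14 and 32 Cd3d UMIs (1.37, 0.593 and 1.65 CPM). The E2-KO libraries had 10, 113 and 19 (0.527, 5.26 and 1.51 CPM), and the G12D libraries 929, 648 and 695 (47.2, 37.0 and 41.4 CPM). The G12D/E2-KO libraries had 683, 27 and 8 (31.0, 1.47 and 0.520 CPM). The gate left out only 139 of the 32701 cells, so it could change these levels little. The order of the libraries stayed almost as it was over all cells. Of the 157 cells with T, NK or ILC2 markers, 49 had a UMI of Cd3e or Cd3g. Most of the 157 were NK-like (91) or ILC2-like (41) and only 25 T-like, so this does not give the share of T cells that passed. Passing the gate does not by itself show that a cell is not a T cell. The fitted log2 change of Cd3d from WT in the cells that passed was 1.24 (SE 1.70) in E2-KO, 5.25 (SE 1.54) in G12D and 2.67 (SE 1.62) in G12D/E2-KO. A single library set the direction of the change in both Ezh2-deleted genotypes, since it was -0.76 in E2-KO without the T2 library and -0.47 in G12D/E2-KO without the T1 library. In G12D it ran from 4.69 to 6.17 with any 1 of the 12 libraries left out.

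**Figure D1:**
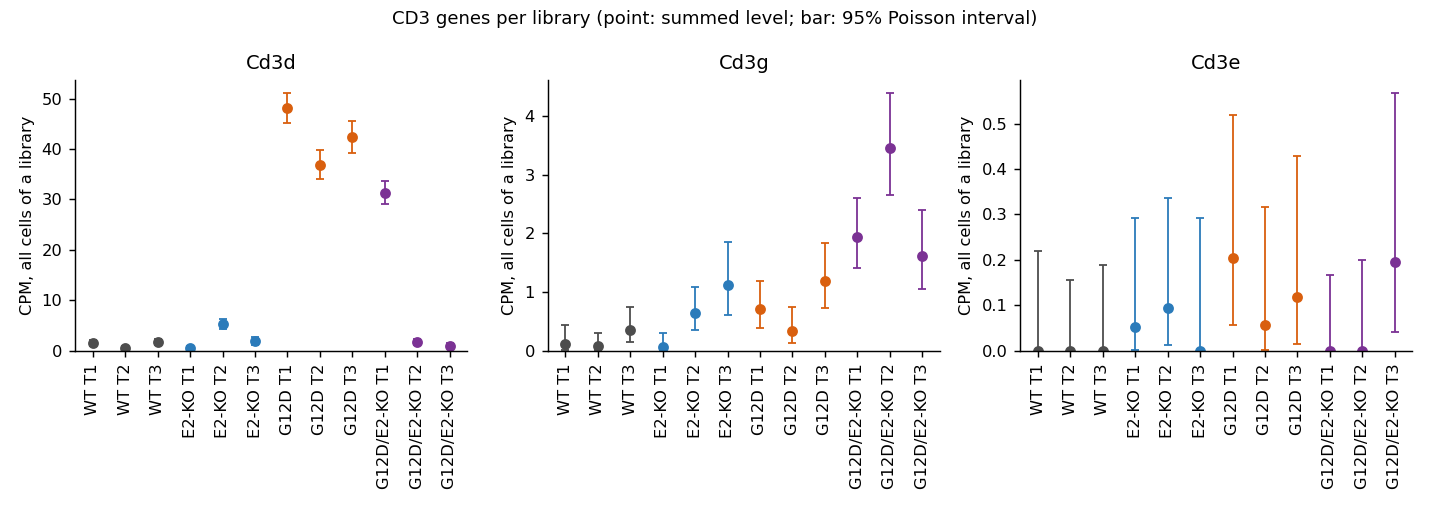
Level of Cd3d, Cd3g and Cd3e in CPM (y axis, a separate linear scale in each panel) over all cells of each of the 12 libraries (x axis), with 95% Poisson intervals for counting error. The 3 G12D libraries and G12D/E2-KO T1 lie between 31.3 and 48.1 CPM of Cd3d, E2-KO T2 lies at 5.28, and Cd3g and Cd3e stay at or below 3.45 and 0.203 CPM.

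The share of cells with a Cd3d UMI was also highest in the G12D libraries, followed by G12D/E2-KO T1 and E2-KO T2. Among cells with no UMI of Cd3e or Cd3g it was 0.979%, 0.493% and 1.34% in WT, 0.409%, 2.76% and 0.698% in E2-KO, and 20.5%, 17.5% and 17.6% in G12D. In G12D/E2-KO it was 15.8% at T1 (exact 95% interval 14.5 to 17.2%), 0.725% at T2 and 0.307% at T3. After every cell was thinned to 1400 UMIs the shares were 8.63%, 7.28% and 8.07% in G12D, 5.18% in G12D/E2-KO T1 (exact 95% interval 4.42 to 6.03%) and 1.09% in E2-KO T2 (0.747 to 1.54%). The remaining 7 libraries had thinned shares from 0.0384% to 0.462%, all below those 5.

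Most Cd3d UMIs lay in granulocyte precursors. Late GN-like cells, 8362 of the 32701 cells, held 2862 or 87.6% of all Cd3d UMIs, a pooled share to which the G12D libraries and G12D/E2-KO T1 gave most UMIs. In the gated cells of the libraries with little Cd3d, a larger part lay outside the class, with 11 of 32 UMIs in WT T3 and 12 of 27 in G12D/E2-KO T2. GMP/early GN-like cells, the earlier stage that makes primary granule proteins, held 2.85%, promonocyte-like (ProMo-like) cells 1.74%, and cells with T, NK or ILC2 markers 1.68%. Each erythroid, megakaryocytic, B and stem cell class held less than that, and cells left ungated held 2.69%.

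Within late GN-like cells with no UMI of Cd3e or Cd3g, the WT libraries had 5.95, 2.06 and 4.73 CPM of Cd3d at T1, T2 and T3. The E2-KO libraries had 5.13, 67.9 and 9.46 CPM. The G12D libraries had 173, 163 and 160 CPM. The G12D/E2-KO libraries had 98.1, 5.30 and 4.34 CPM. The 95% counting intervals of the 3 G12D libraries (161 to 185, 151 to 177 and 148 to 173 CPM) overlapped, while those of G12D/E2-KO T1 (90.5 to 106) and E2-KO T2 (54.5 to 83.6) lay apart from them and from each other. G12D/E2-KO T1 reached 59.3% and E2-KO T2 41.0% of the G12D mean of 165 CPM. Next in order came E2-KO T3 and the WT, E2-KO and G12D/E2-KO libraries not named yet, whose intervals overlapped from each to the next. The genotype means in the class were 4.25 ± 1.99 CPM for WT, 27.5 ± 35.1 for E2-KO, 165 ± 6.49 for G12D and 35.9 ± 53.9 for G12D/E2-KO (SD, n = 3 libraries).

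Late GN-like cells formed 28.0 to 36.4% of the WT libraries, 9.99 to 14.4% of the E2-KO libraries, 33.1 to 37.4% of the G12D libraries and 13.3 to 37.5% of the G12D/E2-KO libraries. The ranges of WT and G12D overlapped. In E2-KO T2 the class was small, and the level of 5.26 CPM over all gated cells came with 67.9 CPM inside it.

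**Figure D2:**
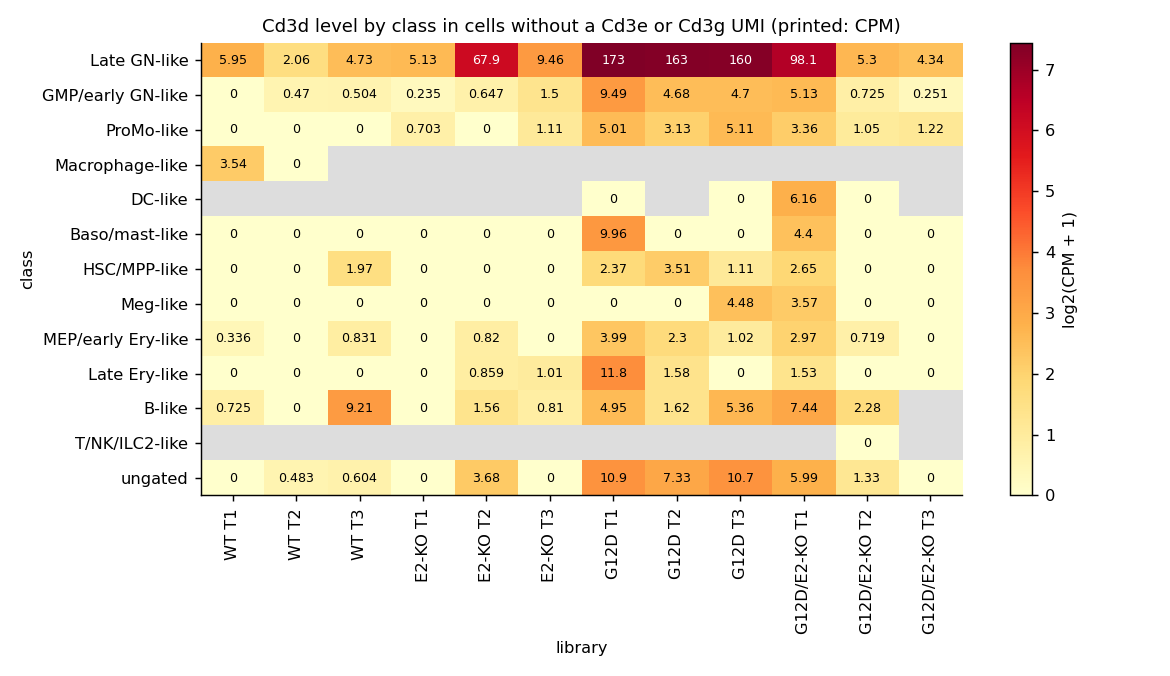
Cd3d level in cells with no UMI of Cd3e or Cd3g, for each marker-gated class (rows) and library (columns), coloured by log2(CPM + 1), with the CPM printed and grey for under 20 cells. The late GN-like row reaches 173, 163 and 160 CPM in G12D, 98.1 in G12D/E2-KO T1 and 67.9 in E2-KO T2, while other coloured cells stay at 11.8 CPM or less.

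In single late GN-like cells of WT, no cell had more than 1 Cd3d UMI. In G12D T1, 474 of 925 late GN-like cells (51.2%) had a Cd3d UMI and 212 of these had 2 or more, with 7 as the most in a cell. In G12D T2 and T3, 374 of 795 (47.0%) and 392 of 953 cells (41.1%) had one. In G12D/E2-KO T1, 410 of 1133 cells (36.2%) had one and 144 of them 2 or more. In E2-KO T2 it was 63 of 294 cells (21.4%), of which 20 had 2 or more. The other libraries had shares of 1.15 to 2.95% at median depths of 3045 to 5348 UMIs per cell, and the G12D medians of 4997, 4445 and 3865 lay in the same range. Thinned to 1400 UMIs per cell, the share was still 23.9%, 20.9% and 20.3% in G12D, 12.9% in G12D/E2-KO T1 and 10.5% in E2-KO T2.

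**Figure D3:**
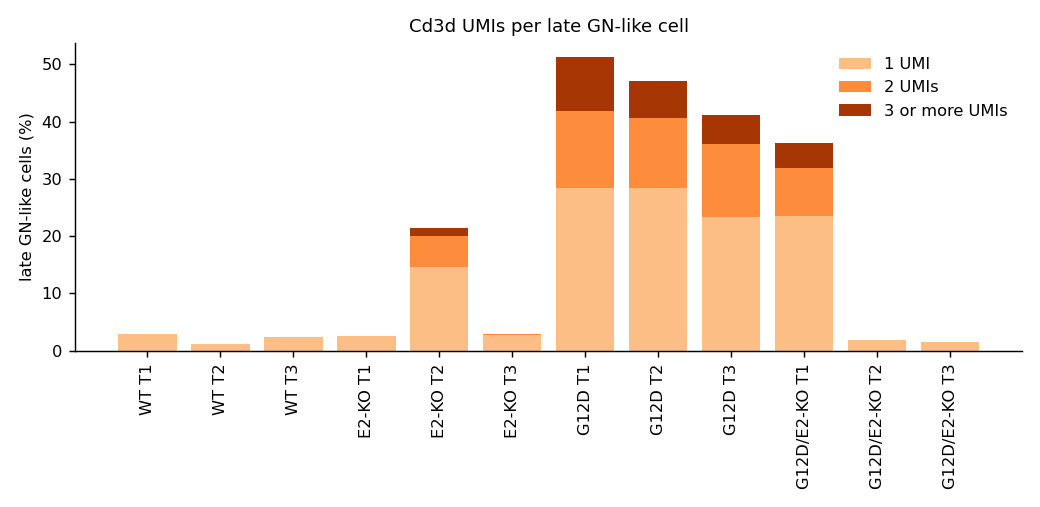
Share of late GN-like cells (y axis, percent) with 1, 2, or 3 or more Cd3d UMIs in each library (x axis), in cells with no UMI of Cd3e or Cd3g. Cells with 2 or more UMIs make up 31.7 to 44.7% of the cells with any in the G12D libraries, G12D/E2-KO T1 and E2-KO T2, and none do in the WT libraries.

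Outside the late GN-like class, Cd3d stood at 6.91, 3.68 and 5.13 CPM in the G12D libraries and 4.43 CPM in G12D/E2-KO T1, against 0.293, 0.213 and 0.733 CPM in WT. Each of these 4 libraries was thus above every WT library outside the class too. Droplets also take up free RNA of broken cells, so the level was set against S100a8, S100a9, Ngp and Camp, abundant transcripts of late granulocytes. In late GN-like cells of G12D T1 there were 42.9 Cd3d UMIs per 100000 UMIs of those genes (95% Poisson interval 40.0 to 45.9). Erythroid cells of the same library, which should lack all of them, had 97.7 (61.2 to 148), and GMP/early GN-like cells 32.0 (22.0 to 44.9). In G12D T2 the ratio was 39.0 in late GN-like and 49.9 in erythroid cells (26.5 to 85.3), and in G12D T3 38.8 and 15.4 (1.87 to 55.7). In G12D/E2-KO T1 it was 24.0 and 43.5 (19.9 to 82.5). In GMP/early GN-like cells the ratio was 10.6 (5.96 to 17.6) in G12D T2, 17.6 (9.38 to 30.1) in G12D T3 and 7.44 (4.48 to 11.6) in G12D/E2-KO T1, below the late GN-like value in each. In ProMo-like cells it was 65.4 (38.8 to 103) in G12D T1 and 72.7 (44.4 to 112) in G12D T3, and the interval lay above the late GN-like value in G12D T3 but not in G12D T1. It was 58.3 (18.9 to 136) in G12D T2 and 33.6 (14.5 to 66.2) in G12D/E2-KO T1, where the interval covered that value. The interval in erythroid cells covered the late GN-like value in 3 of these 4 libraries and lay above it in G12D T1. In E2-KO T2 it also lay above, at 57.7 (23.2 to 119) against 17.7. No expression outside granulocytes is read from these levels, which were low or rested on few UMIs. The part of free RNA in them was not tested. Median depths were 7560 UMIs in erythroid and 4330 UMIs in late GN-like cells.

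Late GN-like cells with a Cd3d UMI had more Retnlg, Mmp8, Mmp9 and Ly6g, and less of the primary granule genes Elane and Prtn3, than those without one. The G12D libraries had only 0.660 to 0.893 Cd3d UMIs per late GN-like cell, so a cell without a UMI may still express the gene. The split is thus one of detection. Among late GN-like cells of G12D T1, those with a Cd3d UMI had 1018 CPM of Retnlg, a resistin-like secreted protein of mature neutrophils, and those without had 384 CPM. For Mmp8 the values were 158 and 50.5 CPM, for the gelatinase gene Mmp9 148 and 62.8, and for the neutrophil surface antigen Ly6g 636 and 370. The primary granule protease genes went the other way, with Elane at 273 and 435 CPM and Prtn3 at 162 and 292. Ngp, which is high throughout the class, was at 64970 and 63966 CPM, and Camp at 76123 and 75824.

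The same split was seen in each library with at least 20 late GN-like cells that had Cd3d. The ratio of cells with to cells without a Cd3d UMI was 1.15 to 3.32 for Retnlg, 1.43 to 7.81 for Mmp8 (at most 3.56 without E2-KO T2, where it rested on 6 and 3 UMIs), 1.68 to 2.36 for Mmp9, 0.436 to 0.687 for Elane and 0.400 to 0.706 for Prtn3. In WT T3, with 21 such cells of 1 UMI each, Retnlg was 1666 against 567 CPM and Elane 99.8 against 177. The WT T3 ratios of Mmp8, Mmp9, Elane and Prtn3 rested on 13, 17, 10 and 8 UMIs in the cells with Cd3d. In E2-KO T2, with 63 such cells, Ly6g was 531 against 220 CPM and Elane 254 against 584, while Retnlg differed little (131 against 114). The S phase gene Pcna was lower in the cells with Cd3d in 5 of these 6 libraries (ratios 0.314 to 0.712) and higher in WT T3 (1.68), where it rested on 7 UMIs. Median UMIs per cell were alike in both sets in the G12D libraries (ratios 0.951 to 0.999) and lower in the cells with Cd3d of WT T3 (0.775). Cells of 1 library share their source, so these are descriptions with no test.

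**Figure D4:**
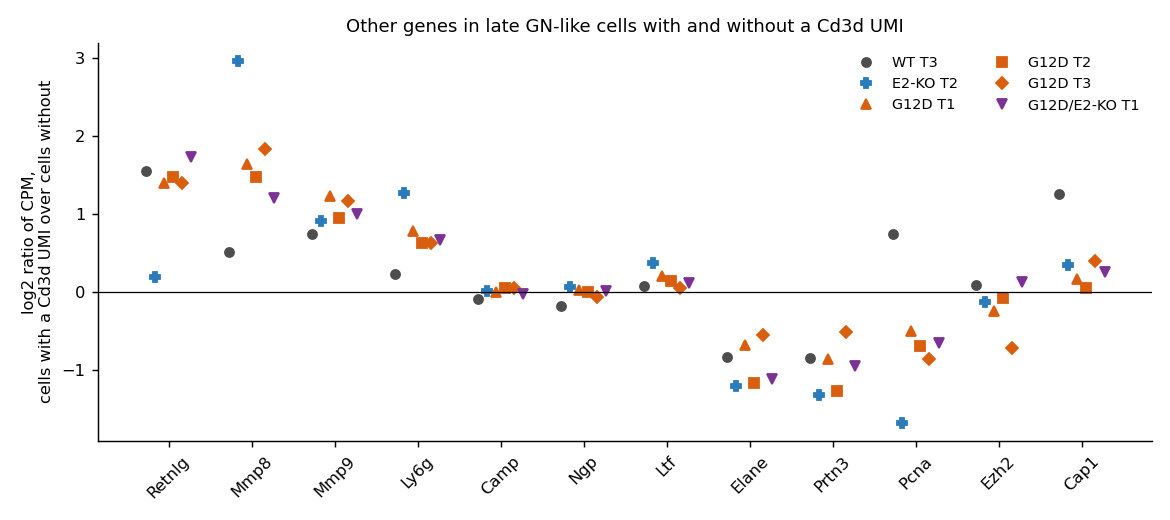
Log2 ratio of the CPM in late GN-like cells with a Cd3d UMI over those without (y axis) for named genes (x axis), 1 point for each library with at least 20 such cells. Retnlg, Mmp8, Mmp9 and Ly6g lie above 0, Elane and Prtn3 below 0, and Camp and Ngp close to 0 in all 6 libraries.

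Cd3e and Cd3g did not share the granulocyte level of Cd3d. Cd3e had no UMI in the 8362 late GN-like cells, which allows a share of up to about 0.0359% of cells with a UMI. This is an approximate one-sided limit that takes 3 counts as the upper limit of a zero count. With 13 UMIs of Cd3e in all cells, this limits detection and not the share of cells that express the gene. Cd3g had 17 UMIs in 17 of those cells (0.203%), and 9 of the 17 also had Cd3d, where 1811 late GN-like cells (21.7%) had Cd3d in all. Per UMI the pooled class had 72.8 CPM of Cd3d and 0.433 CPM of Cd3g. Counts at the 3′ end are not scaled by length, so levels of different genes are compared here per molecule tag only.

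Per UMI, Cd3g and Cd3e were highest in cells gated on T, NK or ILC2 markers, which numbered 157 in all libraries. Those cells held 113 (53.3%) of the Cd3g UMIs at 167 CPM and 8 of the 13 Cd3e UMIs at 11.8 CPM. The rest of the Cd3g UMIs were spread at 3.04 CPM or less over the other classes, with 18 in cells with markers of early erythroid precursors, 17 in late GN-like and 27 in ungated cells. Of the cells with a UMI of Cd3e or Cd3g, 49 were T/NK/ILC2-like, 17 late GN-like and 73 of other classes or ungated. They also had Cd3d at 81.2 CPM, with 26 of 157 cells positive, 21 of them together with Cd3g. Lck, the kinase that phosphorylates the CD3 tails, was at 130 CPM there, Thy1 at 56.1, Lat at 50.2 and Cd247 at 22.2, and the NK genes Nkg7 and Klrd1 at 663 and 276 CPM. Lck, Thy1, Lat, Nkg7 and Klrd1 were markers of this class, so their levels there follow from the gate, while Cd247 was not a marker. Of the 157 cells, 91 were gated as NK-like, 41 as ILC2-like and 25 as T-like.

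Per library, Cd3g over all cells was 0.119, 0.0846 and 0.359 CPM in WT and 0.0526, 0.649 and 1.11 CPM in E2-KO. It was 0.710, 0.341 and 1.19 CPM in G12D and 1.93, 3.45 and 1.62 CPM in G12D/E2-KO. All 3 G12D/E2-KO libraries were above all others, on 43, 64 and 25 UMIs. The fitted log2 change from WT was 1.56 (SE 0.88), 2.06 (SE 0.85) and 3.73 (SE 0.79) in E2-KO, G12D and G12D/E2-KO. The T/NK/ILC2-like cells were 0.573 to 1.17% of the G12D/E2-KO libraries, 0.167 to 0.383% of the WT libraries, 0.123 to 0.619% of the E2-KO libraries and 0.0415 to 0.666% of the G12D libraries. More such cells and more RNA per cell cannot be told apart in a sum over a library. Within G12D/E2-KO, these cells held 21 of the 43 Cd3g UMIs at T1, 32 of 64 at T2 and 20 of 25 at T3. The rest lay in other classes or in ungated cells. G12D/E2-KO T2 led for Cd3g and had 1.67 CPM of Cd3d, while G12D/E2-KO T1, the next for Cd3g, was also high for Cd3d, at 31.3 CPM. Cd3e had no UMI in any WT library and at most 4 UMIs in any other.

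The late GN-like cells with Cd3d were next examined for other genes of the T cell receptor pathway, with no receptor constant region gene among them. Of the listed receptor pathway genes, 6 that myeloid cells also use (Fcer1g, Ptprc, Csk, Fyn, Lcp2 and Ptpn22) were set aside. Ubash3a, a phosphatase of T cells, had 28 UMIs in the 1802 cells with Cd3d and 114 UMIs in the 6543 cells without. A further 16 listed genes together had 23 UMIs in the 1802 cells and 99 UMIs in the 6543 cells. Cd247, Cd2, Cd5 and Cd6 had none there, and Lck had 4. In the 157 T/NK/ILC2-like cells, Lck alone had 88 UMIs and Cd247 had 15, and of these genes Lck was a marker of that class.

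The pathway list was then tested between genotypes in cells with no UMI of Cd3e or Cd3g, by edgeR's quasi-likelihood test over all genes. Among all 12835 genes, 1.61% were called at an adjusted p of 0.05 in E2-KO against WT, 0.117% in G12D and 5.71% in G12D/E2-KO. Of 30 listed genes 16 were tested. By edgeR 1 of them was called in E2-KO, where it was lower. None was called in G12D or G12D/E2-KO, with 3 and 5 genes at an unadjusted p under 0.05. No share of all genes stands beside counts at an unadjusted p, here and below, so they are not read as results about the lists. DESeq2 called 2 genes in E2-KO, where it called 3.58% of all genes. It called 1 gene in G12D (Thy1, a T and stem cell surface protein) and 2 in G12D/E2-KO (Cd28, a co-stimulatory receptor, and Fyn, a kinase), where it called 1.14% and 10.3% of all genes. The edgeR value of Thy1 in G12D was -2.49 (SE 0.47, adjusted p = 0.101). The median log2 change of the 16 genes was 0.01, 0.18 and 0.19 in E2-KO, G12D and G12D/E2-KO, against 0.00, -0.01 and 0.01 over all genes. Lck changed by -0.02, 0.20 and 0.06, and Cd247 by -0.56, -0.59 and 0.15, none past the threshold. The count in E2-KO fell to 0 without WT T2, WT T3, any E2-KO library or G12D T1, and rose to 3 without G12D/E2-KO T3. With cells thinned and with the stricter gate against T cells the count was also 1, but the gene called was Fyn, which edgeR called in E2-KO under no other setting with all 12 libraries.

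Over all cells, where 1.59%, 0.109% and 5.69% of 12848 genes were called in the same order of contrasts, the list gave the same counts, with 1 gene called in E2-KO and none called in G12D or G12D/E2-KO by edgeR (3 and 4 genes at an unadjusted p under 0.05). DESeq2 called 2, 1 and 3 genes in E2-KO, G12D and G12D/E2-KO there, and 3.53%, 1.11% and 10.2% of all genes.

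Of 26 listed regulators of T and innate lymphoid cells, most of them transcription factors, 20 were tested in the gated cells. Ikzf2, a Helios zinc finger factor, was higher in G12D/E2-KO (log2 change 0.69, SE 0.18, edgeR adjusted p = 0.0466), 1 of 20 where 5.71% of all genes were called, a share near the background. None was called in E2-KO or G12D, with 2 genes each at an unadjusted p under 0.05 and 0 called by DESeq2. In G12D/E2-KO, 9 of the 20 were at an unadjusted p under 0.05, a cut at which the share of all genes is not given. DESeq2 called 5 there (Id2, Hes1, Ikzf2, Tcf3 and Myb), where it called 10.3% of all genes. The edgeR log2 changes of the 5 were 0.71 for Id2, 0.69 for Ikzf2 and 0.58 for Myb, but -1.49 for Hes1 and -0.61 for Tcf3. Sums over the gated cells also follow the mix of classes, which was not separated in them. B-like cells, for example, numbered 246 in WT T1 and 0 in G12D/E2-KO T3. The factors that act on Cd3 genes in T cells gave no call in G12D, with Tcf7 at -0.18 (SE 0.60), Ets1 at 0.17 (SE 0.28), Runx1 at 0.18 (SE 0.15) and Gata3 at 0.57 (SE 0.28). Only 0.117% of all genes were called in G12D, so a missing call there does not show an equal level. The median change of the list was 0.10, 0.16 and 0.27 in E2-KO, G12D and G12D/E2-KO. The call of Ikzf2 was lost (adjusted p from 0.0661 to 0.244) without any WT library, E2-KO T1 or T2, G12D T1 or G12D/E2-KO T2, with cells thinned (0.253), without the time factor (0.119) and with the tables as deposited (0.0569).

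Of the 8 neighbours on each side that had a column, leaving out Cd3e and Cd3g, 10 of 16 had counts enough to be tested in the gated cells. None was called in G12D against WT by edgeR (3 at an unadjusted p under 0.05), or by DESeq2. The nearest tested gene, Ube4a, a ubiquitin ligase whose start is 16.2 kb from that of Cd3d, was at 19.0 to 23.6 CPM in G12D and 19.7 to 21.6 CPM in WT (log2 change 0.11, SE 0.12). Atp5l, a subunit of ATP synthase, changed by -0.00 (SE 0.13), Kmt2a, a histone methyltransferase, by -0.10 (SE 0.16), and Arcn1, a coat protein of transport vesicles, by -0.01 (SE 0.12). Ift46, a protein of cilia, was at 10.2 to 11.7 CPM in G12D and 6.38 to 7.41 CPM in WT (log2 change 0.69, SE 0.19, edgeR adjusted p = 0.258). It was also at 9.73 CPM in E2-KO T2, and at 5.07 to 7.80 CPM in the remaining libraries, with 7.53 CPM in G12D/E2-KO T1. The 4 highest libraries for Ift46 were thus among the 5 highest for Cd3d, over a much narrower range. Few genes were called in G12D at all, so a missing call there does not show that a neighbour was the same in G12D and WT.

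On the other side, Mpzl3, a membrane protein of the immunoglobulin superfamily, was at 0.127 to 0.206 CPM in WT, 0.895 to 1.03 in E2-KO, 0.400 to 0.476 in G12D and 1.04 to 1.77 in G12D/E2-KO. It was higher in E2-KO by 2.43 on the log2 scale (SE 0.44, adjusted p = 0.0207 in edgeR), and also in the double mutant, by 2.88 (SE 0.43, adjusted p = 0.00512), and not called in G12D (1.34, SE 0.48, adjusted p = 0.343). Amica1, a junctional adhesion protein of leukocytes, was higher in G12D/E2-KO (1.73, SE 0.44, adjusted p = 0.0462). Its levels there were 9.07, 3.15 and 2.93 CPM at T1, T2 and T3, against 0.926 to 1.66 CPM in WT and 0.951 to 1.91 CPM in E2-KO, and in G12D they were 3.56, 1.60 and 3.75 CPM. The Mpzl3 call in E2-KO was lost (adjusted p from 0.0714 to 0.135) without any WT library, E2-KO T2 or E2-KO T3, and that of Amica1 (0.0514 to 0.218) in 9 of 12 fits that left out 1 library, all but those without G12D T2, G12D T3 or G12D/E2-KO T3. It was also lost without the time factor (0.0523), with the tables as deposited (0.0552) and with cells thinned (0.0758). Scn4b, a sodium channel subunit, had the largest fitted change of the tested neighbours in E2-KO, 3.56 on the log2 scale (SE 0.98), which did not pass the threshold (edgeR adjusted p = 0.116). It was at 3.58, 2.37 and 3.49 CPM in the E2-KO libraries, all above the 0 to 0.594 CPM of WT, the 0 to 0.228 CPM of G12D and the 0 to 1.30 CPM of G12D/E2-KO. Scn2b, another subunit, changed by 0.32, 0.96 and -0.12 in E2-KO, G12D and G12D/E2-KO (SE 0.60 to 0.63), and Phldb1 by 0.45, 0.16 and -0.01 (SE 0.43 to 0.44), with no call.

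In late GN-like cells alone, where 1.86%, 0.217% and 4.30% of 8742 genes were called in E2-KO, G12D and G12D/E2-KO, 6 neighbours were tested and none was called by edgeR in any contrast (0, 1 and 0 at an unadjusted p under 0.05). Ift46 had the largest fitted change of the 6 in G12D, 0.81 (SE 0.29, edgeR adjusted p = 0.817), at 6.11 to 8.76 CPM against 3.91 to 4.07 CPM in WT. Mpzl3 and Amica1 had too few counts there to be tested. Mpzl3 was at 2.12 to 3.48 CPM in G12D/E2-KO, on 4 to 17 UMIs, and at 0 to 0.225 CPM in WT, on at most 1 UMI. Ube4a was at 12.8 to 18.6 CPM in G12D and 11.3 to 11.9 CPM in WT (log2 change 0.32, SE 0.20), and Kmt2a at 14.0 to 21.7 and 13.6 to 14.7 CPM. The fitted change of Cd3d in the same cells was 2.63 (SE 1.69), 5.33 (SE 1.39) and 2.93 (SE 1.52). None of 7 pathway genes tested there was called. Of 12 regulators, Tcf12 was higher in E2-KO, and Gata3 and Id2 in G12D/E2-KO (edgeR adjusted p = 0.0415, 0.0326 and 0.0440). Gata3 was not called in G12D (log2 change 0.67, SE 0.18, edgeR adjusted p = 0.253). Its levels there were 46.4, 24.1 and 31.8 CPM, all above the 14.8 to 23.9 CPM of WT.

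**Figure D5:**
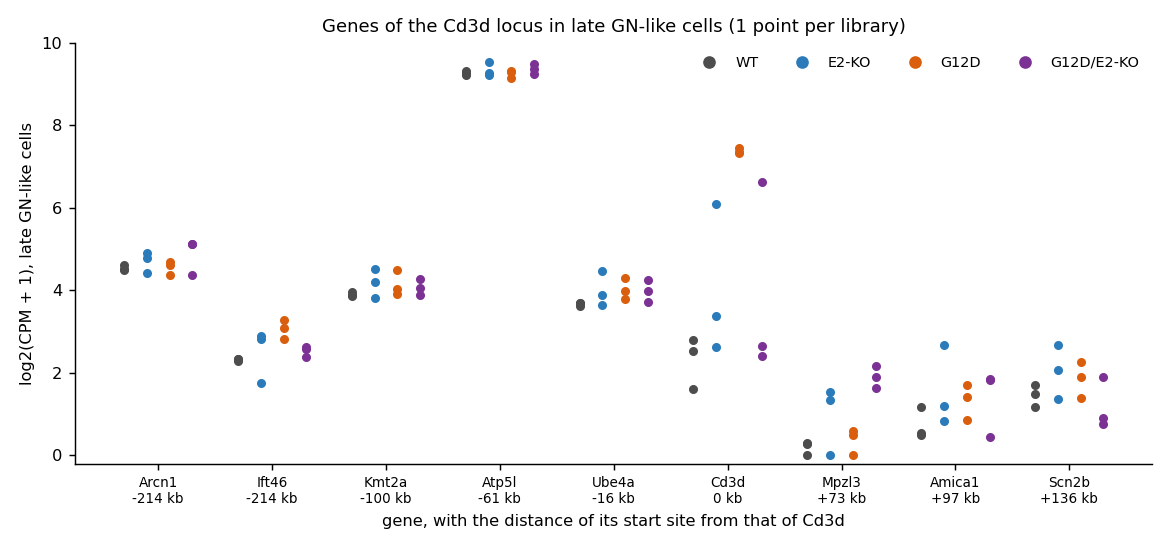
Level of Cd3d and of its neighbours with at least 10 UMIs in late GN-like cells, as log2(CPM + 1) (y axis), 1 point per library coloured by genotype, with the distance of each start site from that of Cd3d under its name. The Cd3d points spread from 2.06 to 173 CPM, while those of Ube4a stay between 11.3 and 21.3 CPM.

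The genes whose level over the 12 libraries was most like that of Cd3d in the gated cells were Dynlt1c (Pearson r = 0.911), Gm26825 (0.909), Mppe1 (0.903), Gm37800 (0.896), Cyp11a1 (0.879) and Fam177a (0.878), out of 12834 genes compared on log2(CPM + 1). The points share the 12 libraries and their mix of cells, and the values are a description. Dynlt1c, a dynein light chain with near-identical copies among which reads could be split, was at 39.9, 31.0 and 32.4 CPM in G12D, 42.7 in G12D/E2-KO T1 and 18.3 to 25.1 in the others. Gm26825, a long non-coding RNA, was at 17.1, 24.0 and 21.0 CPM in G12D, 14.8 in E2-KO T2, 9.02 in G12D/E2-KO T1 and 2.85 to 4.13 in the others. Fam177a was at 54.6, 48.4 and 42.9 CPM in G12D and 44.4 in G12D/E2-KO T1, and 15.2 to 34.1 in the others.

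Cells were taken as shared by the G12D T1 and G12D/E2-KO T1 tables where the cosine similarity of their square-root counts was above 0.9. It was computed over 8000 genes, after the 300 most abundant were left out. Of the 2896 shared cells, 1494 were equal in every gene. The highest similarity among the cells not matched was 0.8931, against at most 0.8561 in any other pair of tables, so some cells counted as found in 1 table may be shared too. The 2896 shared cells had 652 Cd3d UMIs, or 30.1 CPM, and 20.8 CPM of Ezh2. The 148 cells found only in the G12D/E2-KO T1 table had 46 Cd3d UMIs, or 76.9 CPM, and 15.0 CPM of Ezh2. The G12D T1 cells left after the shared ones were taken out had 48.1 CPM of Cd3d and 86.3 CPM of Ezh2. In late GN-like cells the shared set had 96.0 CPM of Cd3d with 36.6% of 1069 cells positive, and the 64 late GN-like cells found only in the G12D/E2-KO T1 table had 160 CPM with 29.7% positive. Cd3d was thus high in both sets of cells, and Ezh2 was low in both.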

How the data were processed

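The authors aligned each library to mm10 with Cell Ranger and deposited whole-number UMI counts per gene and cell. They had removed cells above 10% mitochondrial UMIs and doublets called by Scrublet. No further doublet caller was run. Cells with a cosine similarity above 0.9 in 2 tables were counted once. Cells were classed by marker lists without CD3 genes (mean scaled expression at 10000 UMIs per cell, score limit 0.5, lead 0.25). T, NK and ILC2 classes were merged. UMIs were summed per library over all cells, over cells with no UMI of Cd3e or Cd3g, and over late GN-like cells. Sums were tested with edgeR 4.0.16 in R 4.3.3 (glmQLFit, TMM, filterByExpr, genotype and time point as factors, 6 residual degrees of freedom). P-values are two-sided and adjusted by Benjamini-Hochberg over all genes. The 3 time points stand in for replicates of a genotype, so p-values include any change over time that differed between genotypes. Intervals are exact 95% Poisson or binomial and cover counting error only. The limit for Cd3e in late GN-like cells is approximate and one-sided. DESeq2 1.42.0, another normalization, no low-count filter, tables as deposited, thinned cells, a stricter gate and leaving out each library were tried. The fits were tested on simulated data. The members and lists were chosen with earlier results of these data known. Named list genes are those past the threshold and those needed to read a CD3 level, and genes alike Cd3d are the 6 with the highest r. The fit in late GN-like cells, and the genes named from it, were chosen after the data were seen. The values of 1 gene of the receptor pathway list are not reported here. The 10 neighbours tested in the gated cells were all named, called or not.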

Additional observations from a re-analysis of the deposited data

How the results depend on the processing

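The Cd3d log2 changes moved by less than the spread between libraries of the genotype under every alternative that kept all 12 libraries. In E2-KO and G12D/E2-KO 1 high library makes that spread wide, so little could exceed it there. In E2-KO the change was 1.24 in the gated cells and 2.63 in late GN-like cells. With 1 library left out the Cd3d log2 changes ran from -0.76 to 2.29 in E2-KO, 4.69 to 6.17 in G12D and -0.47 to 3.56 in G12D/E2-KO. With cells thinned to 1400 UMIs the mean Cd3d level was 1.96 CPM in WT and 68.9 in G12D, and the share of cells with Cd3d was 0.274% and 7.99%. Doubling the class score limit gave 174 CPM in late GN-like cells of G12D. The number of pathway genes called in the gated cells in E2-KO, G12D and G12D/E2-KO was 2, 1 and 2 with DESeq2, 2 in G12D/E2-KO without the time factor (no replicate block) and with the stricter gate, 1 there without a filter, and 0 in E2-KO in late GN-like cells (chosen after seeing the data). It ran from 0 to 3, 0 to 0 and 0 to 4 with 1 library left out. Over all cells it was 2, 1 and 3 with DESeq2, 1 in G12D and 2 in G12D/E2-KO without a filter, 2 in G12D/E2-KO without the block, and 0 to 3, 0 to 1 and 0 to 5 with 1 library left out. Neighbours called fell to 0 in E2-KO and 0 in G12D/E2-KO with cells thinned or in late GN-like cells, where Mpzl3 had too few counts to be tested, and to 1 in G12D/E2-KO without the block or with the tables as deposited, and ran from 0 to 1 and 1 to 2 with 1 library left out. Regulators called in G12D/E2-KO were 5 with DESeq2, 2 without a filter, with the stricter gate or in late GN-like cells, 0 without the block, with tables as deposited or with cells thinned, and 0 to 6 with 1 library left out, and 1 was called in E2-KO in late GN-like cells. Shares of all genes called are given above only for the main edgeR fits, DESeq2 and late GN-like cells. Under the other settings no share stands beside the counts, so a rise or fall of a count there is not read as a result about the lists. Of the 6 genes most like Cd3d, 0 were among the 6 in late GN-like cells. The causes were not tested. Libraries of the same time point and different genotype deviated from their genotype means with correlations of -0.19 to 0.42 (median 0.13) over 18 pairs, against a median of -0.06 over 36 pairs of other time points, so not every pair deviated together. No alternative that tested them reversed Ikzf2, Mpzl3 or Amica1. Depth limits Cd3e, with 13 UMIs in all, and genes under the count filter.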

Other observations

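In late GN-like cells alone, a set chosen after the data were seen, the 6 genes most like Cd3d over the 12 libraries were Hacd4 (Pearson r = 0.895), Nprl2 (0.812), Grina (0.811), Rab8a (0.801), Tmem101 (0.800) and Trp53rkb (0.794), of 8741 compared. Hacd4, an enzyme of the elongation of long-chain fatty acids, was at 47.0, 25.5 and 46.9 CPM in G12D, 33.0 in G12D/E2-KO T1, 21.4 in E2-KO T2 and 11.5 to 20.5 in the others. Its fitted log2 change from WT was 1.34 in G12D (SE 0.25), given without a test because the gene was picked for its likeness to Cd3d. Grina, a membrane protein that restrains cell death, was at 53.9, 41.3 and 46.9 CPM in G12D and 59.4 in G12D/E2-KO T1, with a fitted log2 change of 0.34 (SE 0.20) in G12D. Rab8a, a GTPase of vesicle transport, spanned only 67.4 to 79.7 CPM over the 12 libraries.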
